A study of Homo sapiens with 6 samples.

Results

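Solute carriers are the membrane proteins that move nutrients, nucleosides, ions and metals across the cell surface and across the membranes of organelles. The members were chosen by detection: the set described here holds every gene whose symbol has the form SLC, family number, A, member number and whose transcript was above background, at a detection p under 0.05, on at least 3 of 6 Illumina bead arrays. Of 303 such genes on the array 153 met this rule, among 38275 rows in all. The cells were A375, an established human melanoma line, grown for 3 days with leflunomide at 25 µM (LEF25, 3 arrays) or with its solvent DMSO (3 arrays), in the same medium with serum. Both treatments used 1 cell line. No label states that replicate arrays were made from separate flasks, so the p-values reflect the scatter of these arrays alone, and that scatter could be technical.

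Leflunomide acts on the pyrimidine pathway by blocking dihydroorotate dehydrogenase, an enzyme of the inner mitochondrial membrane. Cells short of pyrimidines can take up nucleosides through equilibrative nucleoside transporters of the SLC29 family and salvage them. Amino acid carriers of the SLC1, SLC7 and SLC38 families supply glutamine, cystine and cationic amino acids, SLC2 proteins carry hexoses, SLC35A proteins bring nucleotide sugars into the Golgi, and SLC25 proteins exchange metabolites across the inner mitochondrial membrane. The comparison asks which of these transcripts differed in abundance between cells grown with leflunomide and cells grown with DMSO.

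The members comprised 4 nucleoside, 22 amino acid, 14 sugar, 5 nucleotide sugar, 28 mitochondrial and 40 ion or metal carriers, and 40 carriers of other substrates. Classes were assigned by SLC family, with some genes set singly. Not every member need therefore carry the substrate, or lie in the membrane, that its class names. Promoter sequences of 4 members are shown, chosen after their values were seen. SLC14A1 had the largest decrease without LEF25 replicate 3, and SLC30A1 is the zinc exporter. SLC38A1 and SLC7A1 are amino acid carriers described below whose windows held a motif match. Each sequence runs from 250 bases before to 50 bases after the annotated start of the gene, in the direction of transcription, as given by RefSeq for build GRCh38.p14. Capitals mark matches, on either strand, to the core of the metal response element (TGCGCNC or TGCACNC) or to the core of the amino acid response element (TGATGNAA).

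SLC14A1, chr18:45723931-45724230, plus strand: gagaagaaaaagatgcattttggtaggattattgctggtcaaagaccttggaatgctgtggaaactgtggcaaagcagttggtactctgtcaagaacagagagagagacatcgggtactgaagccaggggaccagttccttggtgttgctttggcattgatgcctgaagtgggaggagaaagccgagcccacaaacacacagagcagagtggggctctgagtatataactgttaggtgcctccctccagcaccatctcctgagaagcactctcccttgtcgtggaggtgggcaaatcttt
SLC30A1, chr1:211579112-211579411, minus strand: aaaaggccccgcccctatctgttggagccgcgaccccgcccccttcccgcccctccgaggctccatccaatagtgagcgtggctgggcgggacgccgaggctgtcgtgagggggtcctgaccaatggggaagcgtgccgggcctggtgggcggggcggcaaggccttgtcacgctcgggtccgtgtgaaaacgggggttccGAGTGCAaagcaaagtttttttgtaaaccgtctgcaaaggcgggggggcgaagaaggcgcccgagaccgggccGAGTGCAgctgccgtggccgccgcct
SLC38A1, chr12:46266467-46266766, minus strand: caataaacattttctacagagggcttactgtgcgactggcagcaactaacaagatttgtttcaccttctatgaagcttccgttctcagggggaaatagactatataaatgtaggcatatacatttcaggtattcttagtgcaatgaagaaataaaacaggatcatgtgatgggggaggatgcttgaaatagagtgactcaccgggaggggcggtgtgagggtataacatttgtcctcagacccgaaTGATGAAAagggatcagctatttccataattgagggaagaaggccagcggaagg
SLC7A1, chr13:29595639-29595938, minus strand: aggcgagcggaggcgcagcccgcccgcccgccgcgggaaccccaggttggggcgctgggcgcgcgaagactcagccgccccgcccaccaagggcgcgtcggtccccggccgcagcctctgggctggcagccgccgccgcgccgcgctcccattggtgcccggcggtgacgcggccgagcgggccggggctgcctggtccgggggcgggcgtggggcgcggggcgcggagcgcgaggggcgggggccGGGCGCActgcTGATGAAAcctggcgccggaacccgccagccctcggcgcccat

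The SLC14A1 window held neither motif. SLC30A1 held 2 metal response cores, both read on the opposite strand. SLC38A1 and SLC7A1 each held 1 amino acid response core, close to the start of the gene. SLC7A1 also held 1 metal response core, read on the opposite strand. A metal response core occurred in 29.3% of all 27305 promoters and in 32.1% of the 131 member promoters that RefSeq listed. An amino acid response core occurred in 3.67% of all promoters and in 6.11% of those of members. SLC38A2 and SLC39A10, which are described below, had no match to either motif in their windows. A match is a match of letters and no evidence of binding.

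LEF25 replicate 3 stood apart from the other 5 arrays. Across the members, correlations of its normalized log2 intensity with the remaining arrays were 0.818 to 0.825, and those among the remaining arrays were 0.986 to 0.997. It detected 104 members, while the other arrays detected 145 to 151. There were 96 members with a signal above 100 and detection on all of the other arrays. Of these, 16 were not detected on replicate 3, and 10 of the 16 had signals no higher than 1 SD above its negative control mean of 36.8 ± 6.52 (SD). On each of the other arrays that last count was 0 of 53 or 54. The rest of the 16 had signals of 63.8 to 875 on replicate 3, in rows that combine several probes. Fold changes of members are therefore given below with all 6 arrays and on the other 5 arrays.

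SLC30A7, a Golgi zinc carrier, showed the loss most plainly, with deposited signals of 1368, 1912 and 14.8 on LEF25 arrays 1, 2 and 3, against 1764, 1921 and 1976 on the DMSO arrays. SLC35A5, an SLC35A family member, had 935, 1369 and 14.1 on the LEF25 arrays, against 1172, 1469 and 1260 with DMSO. In both, the third leflunomide array lay below its negative control mean while the other arrays were close together. The glucose-6-phosphate carrier gene SLC37A4 had 716, 1006 and 12.3, against 799, 917 and 841. Others of the 10 were SLC12A9, SLC22A4, SLC2A6, SLC31A1, SLC36A4 and SLC38A1. Their log2 fold changes over 6 arrays rest on this 1 array: SLC30A7 was at −2.02 ± 1.66 (SE) with it and at 0.03 ± 0.12 (SE) without it. For SLC35A5 the values were −1.78 with the array and 0.10 without it.

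**Figure D1:**
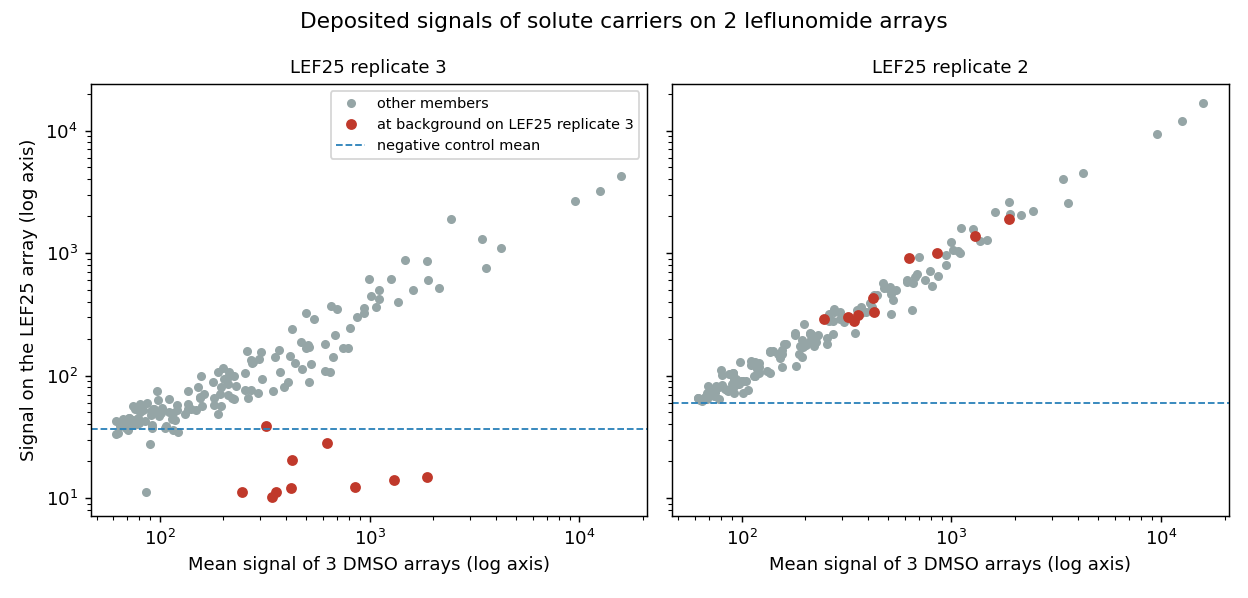
Deposited signal of each of the 153 members on LEF25 replicate 3 (left) and LEF25 replicate 2 (right), against the mean signal of the 3 DMSO arrays, both on log axes. The 10 members in red lie at or below the negative control mean (dashed line), or within 1 SD above it, on replicate 3, and lie among the other members on replicate 2.

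With all 6 arrays 2 members fell and none rose. SLC14A1, which encodes a urea transporter, fell 2.09-fold, and SLC31A2, which encodes a copper carrier of the CTR family, fell 1.66-fold. At an adjusted p under 0.05 from limma over 12345 genes, these were 1.31% of the members, against 1.07% of all genes in either direction. The background was 0.834% for lower genes and 0.235% for higher genes. The share of members called was thus close to the background, and 29 members had an unadjusted p under 0.05, 19.0% beside 16.9% of all genes.

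SLC14A1 had normalized log2 intensities of 7.65, 7.87 and 7.81 on the LEF25 arrays, against 8.79, 8.87 and 8.85 on the DMSO arrays. All 3 leflunomide arrays lay at least 0.9 below the lowest DMSO array. The log2 fold change was −1.06 ± 0.10 (SE, limma adjusted p = 0.0202). On 5 arrays it was −1.09 ± 0.11 (SE, limma adjusted p = 2.79e-05). This row combines several probes.

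SLC31A2 had normalized log2 intensities of 7.15, 7.15 and 7.01 on the LEF25 arrays, against 7.82, 7.94 and 7.75 on the DMSO arrays. Again the groups did not overlap. The log2 fold change was −0.73 ± 0.11 (SE, limma adjusted p = 0.0441), and −0.70 ± 0.10 (SE) without LEF25 replicate 3 (limma adjusted p = 0.000608). Without any 1 of the other 5 arrays neither gene passed, with adjusted p of 0.0689 to 0.170 for SLC14A1 and of 0.150 to 0.267 for SLC31A2 (limma). With the replicate number as a block the adjusted p was 0.133 for SLC14A1 and 0.172 for SLC31A2 (limma).

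Without LEF25 replicate 3, 16 members rose and 20 fell. These were 10.5% and 13.1% of the 153, beside 9.33% higher and 9.94% lower over all genes (23.5% beside 19.3% in either direction). Of the 36 members, 35 had the same sign with all 6 arrays, and the exception was SLC38A1. Scaling matters for the increases. When these 5 arrays were scaled to a common median, which moved the median of all genes to −0.19, all 36 kept their sign, 13 passed the threshold and all 13 were lower. When their 75th percentiles were made equal, 11 members rose and 17 fell.

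**Figure D2:**
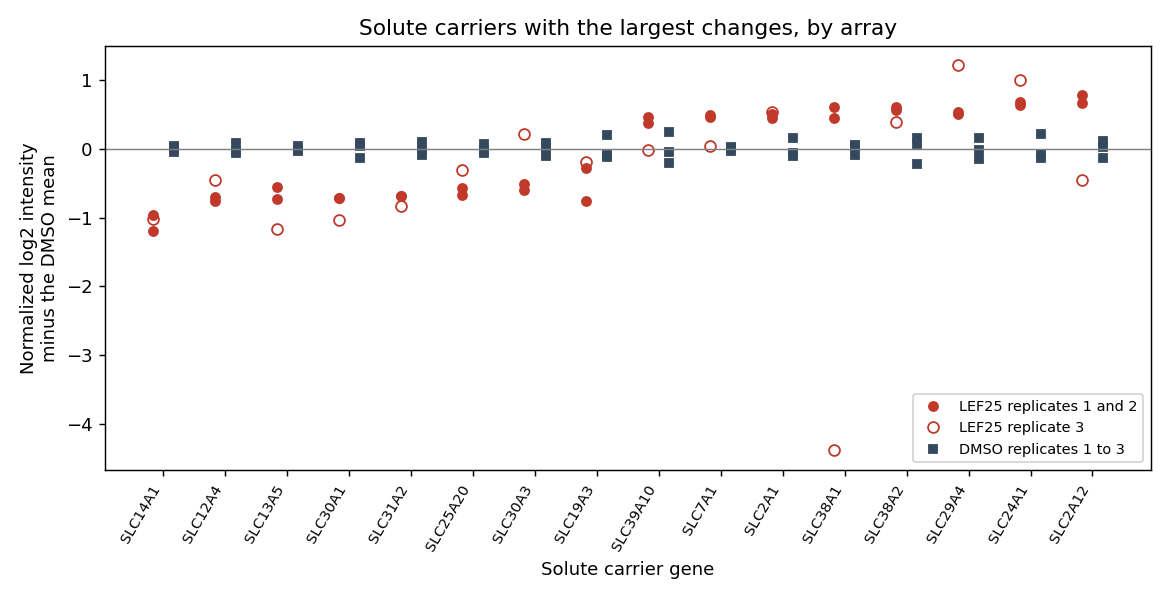
Normalized log2 intensity of each array minus the DMSO mean for the 8 members with the largest decreases and the 8 with the largest increases on 5 arrays. LEF25 arrays are circles, with replicate 3 open, and DMSO arrays are squares. Replicate 3 lies with the other leflunomide arrays for SLC14A1, SLC31A2 and SLC2A1 and far from them for SLC38A1 and SLC2A12.

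Among the nucleoside carriers, all 4 fold changes over 6 arrays were above 0 and none passed the threshold. The median was 0.28 on the log2 scale, and −0.40 under median scaling, where the median of all genes was −0.53. SLC29A1, the main equilibrative nucleoside transporter of the cell surface, had normalized log2 intensities of 7.22, 7.17 and 7.60 on the LEF25 arrays, against 7.09, 7.00 and 7.01 on the DMSO arrays. The groups did not overlap, but the log2 fold change of 0.29 had a 95% interval of −0.049 to 0.64 (limma adjusted p = 0.358). On 5 arrays it was 0.17, with an interval of −0.047 to 0.38.

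SLC29A2, the second equilibrative transporter, was at 6.70, 6.80 and 6.88 with LEF25, against 6.43, 6.56 and 6.62 with DMSO. Its log2 fold change was 0.26 ± 0.11 (SE, limma adjusted p = 0.302) and 0.22 ± 0.10 (SE) on 5 arrays (limma adjusted p = 0.159). SLC29A3, a lysosomal and mitochondrial member, was at 0.08 and −0.10 in the same comparisons, and its groups overlapped. For none of these 3 salvage carriers do the intervals exclude a change of 0.

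SLC29A4, a monoamine transporter of this family that also carries adenosine, rose on 5 arrays. Its normalized log2 intensities were 5.67, 5.65 and 6.35 with LEF25, against 4.99, 5.12 and 5.30 with DMSO, so every leflunomide array lay above every DMSO array. The fitted difference in log2 intensity was 0.75 ± 0.22 (SE, limma adjusted p = 0.167) with 6 arrays and 0.60 ± 0.12 (SE, limma adjusted p = 0.00348) with 5. It was detected on 2 of 3 LEF25 arrays and 3 of 3 DMSO arrays, with signals of 58.9 to 101, against 72.8 to 85.2. These signals were dim, as negative control means were 36.8 to 59.6.

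Of the 22 amino acid carriers none passed with 6 arrays. On 5 arrays 3 rose (13.6%, beside 9.33% of all genes), 1 fell (4.55%, beside 9.94%) and 18 did not pass. The class median was 0.17, beside 0.006 for all genes, and 16 of 22 values were above 0. Under median scaling of the 5 arrays that median was −0.083, beside −0.19 for all genes. With 6 arrays it was 0.04. The 3 that rose were the sodium-coupled neutral amino acid transporters SLC38A1 and SLC38A2, which carry glutamine and alanine, and the cationic amino acid transporter SLC7A1.

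SLC38A2 had normalized log2 intensities of 10.25, 10.21 and 10.03 on the LEF25 arrays, against 9.70, 9.80 and 9.42 on the DMSO arrays. No leflunomide array overlapped the DMSO arrays. It was at 0.52 ± 0.14 (SE, limma adjusted p = 0.143) with 6 arrays and 0.59 ± 0.12 (SE, limma adjusted p = 0.00482) with 5. SLC38A2 transcripts are known to rise when amino acids are withdrawn.

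SLC38A1 had 9.23, 9.39 and 4.40 on the LEF25 arrays, against 8.82, 8.69 and 8.84 on the DMSO arrays. It is among the members at background on LEF25 replicate 3, and its direction depends on that array. It was at −1.11 ± 1.32 (SE) with 6 arrays (limma adjusted p = 0.667) and 0.52 ± 0.10 (SE) on 5 (limma adjusted p = 0.00433). SLC7A1, whose window above holds an amino acid response core, had 10.71, 10.69 and 10.27 with LEF25, against 10.25, 10.24 and 10.19 with DMSO. It was at 0.33 with 6 arrays and rose by 0.46 ± 0.10 (SE, limma adjusted p = 0.00578) on 5 arrays.

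The SLC1 carriers of glutamate and neutral amino acids had values between 0.17 and 0.30 on 5 arrays and between 0.38 and 0.56 on 6, and none of the 4 passed. SLC1A5, the glutamine carrier ASCT2, was at 0.30 with an interval of 0.084 to 0.52 (limma adjusted p = 0.0539) on 5 arrays, and at 0.56 ± 0.22 (SE, limma adjusted p = 0.285) on 6. Its normalized log2 intensities were 9.75, 9.86 and 10.56 with LEF25, against 9.58, 9.45 and 9.45 with DMSO. SLC7A11, the cystine carrier, was at 0.34 ± 0.12 (SE) on 5 arrays, short of the threshold (limma adjusted p = 0.063), and at 0.13 on 6.

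The leucine carrier SLC7A5 and its partner chain SLC3A2 did not pass in either comparison. SLC7A5 was at −0.13, with an interval of −0.35 to 0.089, and SLC3A2 was at 0.02, with an interval of −0.19 to 0.24, both on 5 arrays. With 6 arrays SLC7A5 was at −0.24 and SLC3A2 at 0.21. The 1 amino acid carrier that fell was SLC36A1, a proton-coupled carrier of the lysosome and cell surface, at −0.38 ± 0.11 (SE, limma adjusted p = 0.0337) on 5 arrays and −0.32 on 6.

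Of the 14 sugar carriers none passed with 6 arrays, and 3 facilitative hexose carriers rose on 5 (21.4%, beside 9.33% of all genes). SLC2A1, which encodes GLUT1, had normalized log2 intensities of 10.89, 10.94 and 10.98 with LEF25, against 10.38, 10.61 and 10.34 with DMSO. Its 3 leflunomide arrays were within 0.1 of each other and above all DMSO arrays. It was at 0.50 ± 0.11 (SE, limma adjusted p = 0.110) with 6 arrays and 0.46 ± 0.11 (SE, limma adjusted p = 0.0108) with 5. Under median scaling of all 6 arrays it was −0.17, above the −0.53 of all genes.

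SLC2A12, which encodes GLUT12, had the largest increase of any member on 5 arrays, but its signals were dim. They were 88.0, 111 and 41.4 with LEF25, against 71.3, 88.3 and 79.1 with DMSO, where negative control means were 36.8 to 59.6. The gene was detected on 2 of 3 LEF25 arrays and on all DMSO arrays. It was at 5.75, 5.86 and 4.62 with LEF25, against 4.94, 5.20 and 5.10 with DMSO, so replicate 3 lay below all DMSO arrays and the other leflunomide arrays above them. It was at 0.83 ± 0.11 (SE, limma adjusted p = 0.000366) on 5 arrays and 0.33 ± 0.34 (SE) on 6. SLC2A3, which encodes GLUT3, was at 0.33 ± 0.10 (SE, limma adjusted p = 0.0414) on 5 arrays and 0.46 on 6. Its sequence is close to that of SLC2A14, also a member, so their probes may not tell the transcripts apart. Under 75th percentile scaling of 5 arrays SLC2A3 did not pass (limma adjusted p = 0.101). SLC2A13 was at −0.38 ± 0.13 (SE, limma adjusted p = 0.0627) on 5 arrays and −0.22 on 6. Across all 14 sugar carriers the median was −0.11 with 6 arrays and 0.09 with 5, or −0.053 with 5 under median scaling.

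The 5 SLC35A members had a median of −0.32 with 6 arrays and −0.15 with 5, and none passed in either comparison. SLC35A2, the Golgi carrier of UDP-galactose, had 8.27, 8.18 and 8.07 on the LEF25 arrays, against 8.50, 8.60 and 8.39 on the DMSO arrays. The groups did not overlap, at −0.32 ± 0.11 (SE, limma adjusted p = 0.219). SLC35A1, the carrier of CMP-sialic acid, was at −0.35 ± 0.14 (SE, limma adjusted p = 0.292), also without overlap. On 5 arrays SLC35A2 was at −0.28 and SLC35A1 at −0.24. SLC35A3, the carrier of UDP-N-acetylglucosamine, was at 0.08 on 5 arrays with an interval of −0.14 to 0.31, and at −0.10 on 6 arrays. SLC35A4 was at −0.15 on 5 arrays and −0.02 on 6.

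**Figure D3:**
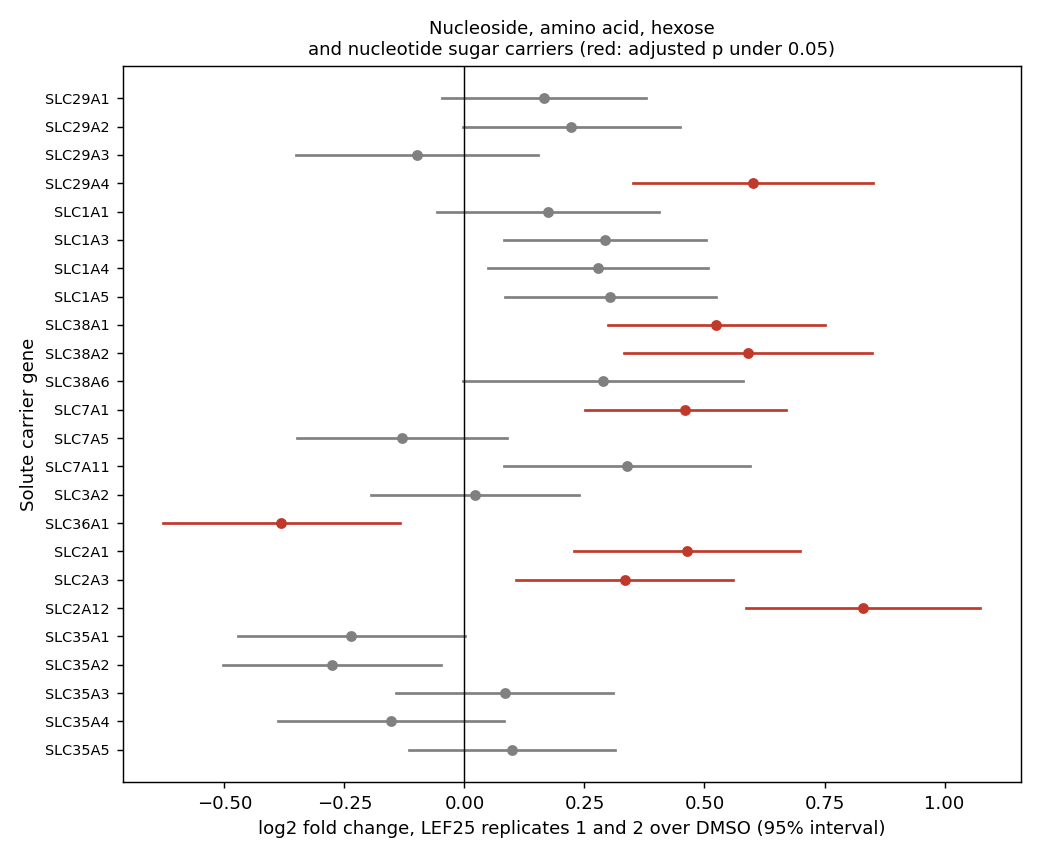
The log2 fold change of LEF25 replicates 1 and 2 over the 3 DMSO arrays, with its 95% interval, for all nucleoside and nucleotide sugar carriers and a selection of amino acid and hexose carriers. The values in red passed an adjusted p of 0.05: SLC36A1 lies below 0, and SLC29A4, SLC38A1, SLC38A2, SLC7A1, SLC2A1, SLC2A3 and SLC2A12 lie above it.

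Among the 28 mitochondrial carriers none passed with 6 arrays. On 5 arrays 6 fell (21.4%, beside 9.94% of all genes), 1 rose (3.57%, beside 9.33%) and 21 did not pass. The class median was −0.04 on 5 arrays and −0.03 on 6. SLC25A20, which carries carnitine and acylcarnitines for fatty acid oxidation, had 6.68, 6.78 and 7.03 on the LEF25 arrays, against 7.28, 7.33 and 7.42 on the DMSO arrays. Its log2 fold change was −0.51 ± 0.13 (SE, limma adjusted p = 0.129) with 6 arrays and −0.64 ± 0.10 (SE, limma adjusted p = 0.00106) with 5. SLC25A4, the ADP/ATP carrier ANT1, had 10.85, 10.93 and 10.82 with LEF25, against 11.41, 11.54 and 11.38 with DMSO. It was at −0.58 ± 0.10 (SE, limma adjusted p = 0.0700) with 6 arrays and −0.55 ± 0.10 (SE, limma adjusted p = 0.00278) with 5.

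The other ADP/ATP carrier measured, SLC25A5, was at −0.03 on 5 arrays, with an interval of −0.24 to 0.18, and at −0.22 on 6. SLC25A25, a carrier of ATP-Mg and phosphate, passed detection on all 3 DMSO arrays but on neither LEF25 replicate 1 nor 2. Its row combines several probes. Signals on LEF25 replicates 1 and 2 were 122 and 142, above negative control means of 56.5 and 59.6. The gene was 1.38-fold lower on 5 arrays (−0.46 ± 0.11 SE, limma adjusted p = 0.0113), with a log2 interval of −0.70 to −0.22. On each of these LEF25 arrays its intensity was no lower than that of the dimmest detected row. The fold is therefore the measured one and not a bound. LEF25 replicate 3 did detect SLC25A25, at a signal of 70.2. The gene was at −0.30 with 6 arrays. The glutamate carrier SLC25A22, the coenzyme A carrier SLC25A42 and SLC25A34, which has no settled substrate, fell by 0.32 to 0.37 on 5 arrays and were at −0.14 to −0.33 on 6. SLC25A34 was dim, with signals of 66.1, 64.0 and 44.9 on the LEF25 arrays, against 74.4, 78.9 and 82.0 on the DMSO arrays. Negative control means were 36.8 to 59.6, and 1 of 3 LEF25 arrays detected SLC25A34. The 1 that rose was SLC25A40, a mitochondrial glutathione carrier, at 0.30 ± 0.10 (SE, limma adjusted p = 0.0451) on 5 arrays and at 0.09 on 6. SLC25A36, which carries pyrimidine nucleotides, was at 0.06 with an interval of −0.19 to 0.30, and the phosphate carrier SLC25A3 was at 0.11. With 6 arrays SLC25A36 was at −0.03 and SLC25A3 at −0.04.

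Of the 40 ion and metal carriers 1 fell with 6 arrays, the copper carrier SLC31A2 (2.50% of the class, beside 0.834% of all genes). On 5 arrays 7 fell (17.5%, beside 9.94% of all genes), 4 rose (10.0%, beside 9.33%) and 29 did not pass. The median was −0.08 with 5 arrays and −0.13 with 6. SLC30A1, the zinc exporter of the cell surface and the gene with 2 metal response cores above, had 7.75, 7.74 and 7.43 on the LEF25 arrays, against 8.50, 8.55 and 8.33 on the DMSO arrays. Every leflunomide array was lower by more than 0.5. It was at −0.82 ± 0.13 (SE, limma adjusted p = 0.0593) with 6 arrays and fell 1.64-fold (−0.72 ± 0.10 SE, limma adjusted p = 0.000622) on 5.

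SLC39A10, a zinc importer, rose on 5 arrays, at 0.44 ± 0.13 (SE, limma adjusted p = 0.0329), and was at 0.28 with 6 arrays. Its groups overlapped over 6 arrays, with 7.17, 7.09 and 6.70 for LEF25, against 6.66, 6.96 and 6.51 for DMSO. SLC30A1 transcripts are known to rise and SLC39A10 transcripts to fall when cell zinc is high. Of the 6 SLC30 zinc exporters measured as members, SLC30A1 and the vesicular SLC30A3 fell on 5 arrays, where 9.94% of all genes fell. Of the 11 SLC39 importers 9 did not pass, where 19.3% of all genes were called in either direction. SLC39A10 rose, and SLC39A6 fell (−0.34 ± 0.11 SE, limma adjusted p = 0.0397, and −0.51 on 6 arrays). A part of zinc in these values was not tested. SLC30A3 was at −0.61 ± 0.10 (SE, limma adjusted p = 0.00171) on 5 arrays and at −0.30 ± 0.23 (SE) on 6.

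SLC12A4, the potassium chloride cotransporter KCC1, had 6.05, 5.99 and 6.28 with LEF25, against 6.72, 6.83 and 6.68 with DMSO. The groups did not overlap. It was at −0.63 ± 0.12 (SE, limma adjusted p = 0.0807) with 6 arrays and fell 1.71-fold on 5 arrays (limma adjusted p = 0.000289). The magnesium carrier SLC41A2 fell by 0.50 on 5 arrays and was at −0.84 on 6. SLC24A1, a sodium calcium potassium exchanger best known from rod photoreceptors, had 6.22, 6.17 and 6.54 with LEF25, against 5.40, 5.75 and 5.47 with DMSO. It was at 0.77 ± 0.16 (SE, limma adjusted p = 0.0932) with 6 arrays and rose by 0.73 ± 0.12 (SE, limma adjusted p = 0.00161) on 5. The others that rose on 5 arrays were SLC12A8, a cation chloride cotransporter family member, at 0.40 (0.61 on 6) and the sulfate carrier SLC26A2 at 0.35 (0.25 on 6). SLC12A8 was dim, with signals of 82.3, 103 and 60.2 with LEF25, against 82.3, 93.7 and 84.0 with DMSO. Negative control means were 36.8 to 59.6. The phosphate carrier SLC20A1 did not pass, at −0.19 on 5 arrays and −0.31 on 6.

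Among the 40 carriers of other substrates SLC14A1 fell with 6 arrays. On 5 arrays 6 fell (15.0%, beside 9.94% of all genes) and 4 rose (10.0%, beside 9.33%). SLC13A5, the citrate carrier of the cell surface, had 5.16, 4.99 and 4.55 with LEF25, against 5.71, 5.77 and 5.69 with DMSO. It was at −0.82 ± 0.17 (SE, limma adjusted p = 0.0989) with 6 arrays and fell 1.67-fold on 5 (limma adjusted p = 0.000468). Its signals were dim, at 72.2, 75.9 and 38.6 with LEF25, against 101, 118 and 102 with DMSO. Negative control means were 36.8 to 59.6, and 2 of 3 LEF25 arrays detected SLC13A5. The thiamine carrier SLC19A3 was at −0.59 ± 0.16 (SE, limma adjusted p = 0.0199) on 5 arrays and −0.41 ± 0.18 (SE) on 6. SLC19A3 was also dim, at 76.2, 71.8 and 49.3 with LEF25, against 106, 103 and 94.5 with DMSO. The other 3 that fell on 5 arrays were SLC16A4, SLC22A15 and the taurine carrier SLC6A6, at −0.31 to −0.51, and −0.47 to −0.59 on 6. The 4 that rose, at 0.33 to 0.38 on 5 arrays and 0.03 to 0.59 on 6, were the fatty acid carrier family members SLC27A3 and SLC27A5, the monocarboxylate family member SLC16A5 and the GABA carrier SLC6A13. The lactate exporter SLC16A3 did not pass, at −0.14 on 5 arrays and 0.21 on 6, so its sign turned on LEF25 replicate 3. SLC16A1, the lactate and pyruvate carrier MCT1, was detected on 0 of 6 arrays. SLC16A12, a monocarboxylate family member in a row that combines several probes, was detected on 4 arrays despite signals of 1862 to 2593. It was at 0.39 with 6 arrays and −0.02 with 5.

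**Figure D4:**
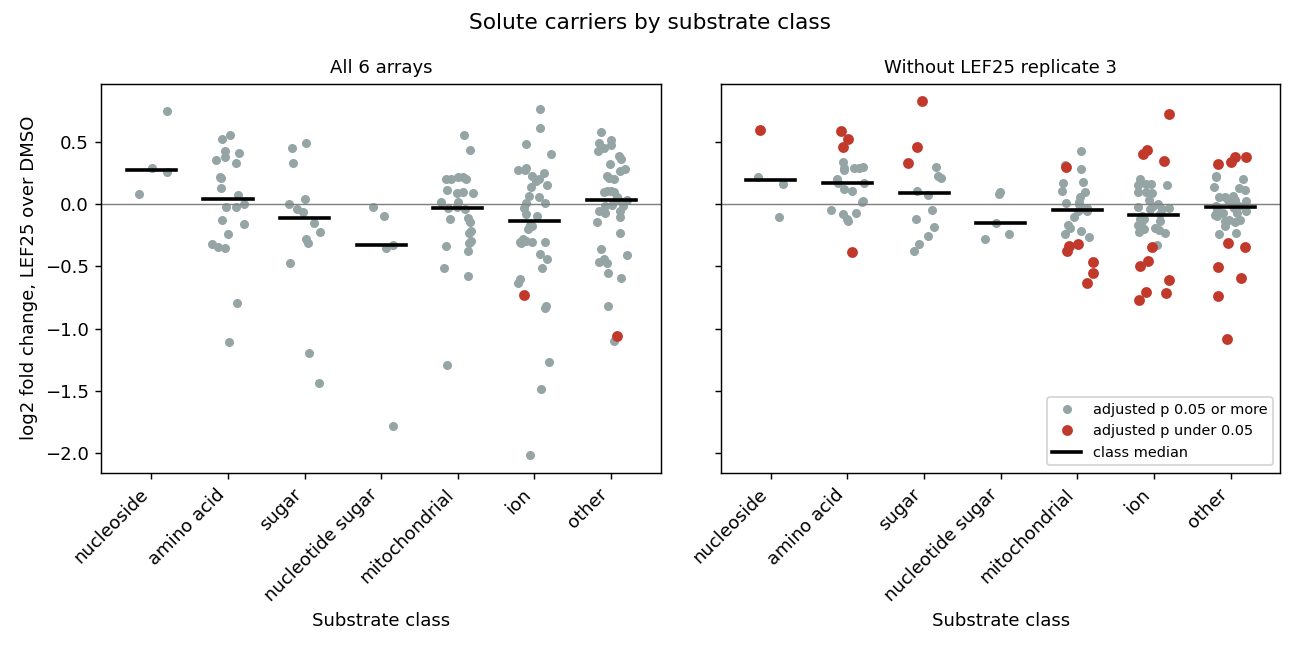
The log2 fold change of LEF25 over DMSO for each of the 153 members by substrate class, with all 6 arrays (left) and without LEF25 replicate 3 (right). Black bars are class medians and red points passed an adjusted p of 0.05, of which there are 2 on the left and 36 on the right. The points below −1 on the left, other than SLC14A1, are members at background on replicate 3.

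Over all 153 members the median log2 fold change was −0.02 with 6 arrays and −0.02 with 5, beside −0.002 and 0.006 for all genes tested. On 5 arrays 71 members were above 0 and 82 below, and the middle 50% lay between −0.19 and 0.17, while for all genes it lay between −0.15 and 0.16. With 6 arrays the 3 LEF25 arrays lay above all DMSO arrays for 21 members (13.7%, beside 14.5% of all genes) and below them for 30 (19.6%, beside 15.3%).

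The detection values that chose the members are described here and carry no test. Of the 153, 101 were detected on all 6 arrays, 36 on 5, 12 on 4 and 4 on 3. A total of 35 were missed on 1 LEF25 array while detected on all DMSO arrays. SLC24A4 was the 1 member detected on all DMSO arrays and no LEF25 array, at −0.08 on 6 arrays and −0.03 on 5, with no fold above the detection limit. The 4 members just inside the rule had signals of 33.6 to 99.1, and the 7 genes detected on 2 arrays had 36.9 to 88.1. Another 21 were detected on 1 array and 122 on none. SLC24A5, a melanosome ion exchanger, was detected on 0 arrays and SLC45A2, a melanosome carrier, on 1.

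Other transporters were read from lists chosen beside the members. Of 18 tested ABC transporters 2 fell with 6 arrays, where 0.834% of all genes fell, the lysosomal peptide carrier ABCB9 (−1.26, limma adjusted p = 0.0455) and the drug efflux pump ABCB1 (−0.92, limma adjusted p = 0.0475). On 5 arrays 3 of the 18 fell and 2 rose, where 9.94% of all genes fell and 9.33% rose, and ABCB9 was at −1.44 and ABCB1 at −0.88. ABCB10, a mitochondrial ABC transporter, and ABCC4, a nucleotide and drug exporter, were the 2 that rose, by 0.57 (0.11 on 6 arrays) and 0.48 (0.37 on 6), and the drug exporter ABCC2 was the other that fell, at −0.39 (limma adjusted p = 0.0432). Of 20 tested solute carriers with other symbol forms none passed with 6 arrays. On 5 arrays SLC35B4, which carries UDP-xylose and UDP-N-acetylglucosamine, rose by 0.36 and SLC35G2 fell by 0.40. With 6 arrays they were at 0.44 and −0.46. One of these 20, SLC8B1, is also a member under its older symbol.

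Of 17 tested partner, energising and regulatory genes none passed with 6 arrays. On 5 arrays CA9, a carbonic anhydrase that works beside bicarbonate and lactate carriers, was higher by 0.88 (limma adjusted p = 0.00147) and at 1.09 on 6. TXNIP, which promotes the removal of GLUT1 from the cell surface, was at −0.43 (limma adjusted p = 0.0206) on 5 arrays and −0.13 on 6. In the melanocytic marker list SOX10 and S100A1 were detected on 6 arrays and PMEL on 4, while MITF was detected on 1 and MLANA, TYR, DCT, TYRP1 and S100B on 0. PMEL, a melanosome matrix protein, had signals of 64.4, 66.1 and 47.2 on the LEF25 arrays, of which replicate 3 alone detected it, against 118, 120.3 and 108 on the DMSO arrays. It fell with 6 arrays (limma adjusted p = 0.0344), and no fold is given at this signal. Of the 5 fibroblast markers COL1A2 was detected on 0 arrays and COL1A1 on 2, and the summed normalized intensity of the list was 137 to 160 on the LEF25 arrays, against 189 to 211 on the DMSO arrays, with DCN and LUM lower on 5 arrays. Of the 6 leukocyte markers PTPRC and CD3E were among those detected on 0 arrays, and the list summed to 702 to 956 on the LEF25 arrays, against 1015 to 1117 on the DMSO arrays, with CD68 and LYZ lower on 5 arrays. None of DCN, LUM, CD68 and LYZ passed with 6 arrays. Of the 4 endothelial and 5 epithelial markers CDH5, VWF, KDR, CDH1 and KRT5 were detected on 0 arrays. KRT8 and KRT14 were detected on 6 arrays, PECAM1 on 5 and EPCAM on 3. The endothelial list summed to 94.4 to 116 on the LEF25 arrays, against 109 to 117 on the DMSO arrays. The epithelial list summed to 194 to 281, against 219 to 273. Without LEF25 replicate 3 KRT14 fell (−0.60, and −0.24 on 6 arrays). The part of these markers in the results for solute carriers was not tested.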

How the data were processed

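The authors deposited the average bead signal of each row, a linear intensity, with its detection p-value, per the file headers. The array means differ, and the values are not on a common scale. GenomeStudio was used, per the submitters' processing notes, with no version or genome build given in the sources used here. In 41 of the 153 members the deposited detection p-value is no rank among 759 negative controls (tolerance 0.001), so these rows combine several probes. A second deposited table of intensity values shares 0 row names with the first, so it gave no gene values.

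Background was corrected with the normexp model of limma 3.58.1 (R 4.3.3), with control parameters from the 32290 rows with ranks and an offset of 16, followed by quantile normalization and log2. Symbols were updated through RefSeq (GRCh38.p14). The fit covered 12345 genes detected at p under 0.05 on at least 3 arrays, 1 row each, with Benjamini-Hochberg adjustment and no replicate block. Without LEF25 replicate 3 the arrays were normalized again. The offset understates changes of dim genes. The number of arrays limits the precision.

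Members, classes and lists were chosen with earlier results of these data known. Named members are those past an adjusted p of 0.05 with 6 arrays, the 8 largest increases and decreases on 5 arrays, the 3 largest changes of each class, a list always given, and members bright on 5 arrays but not detected on the sixth. Others were chosen after their values were seen. Some items are not reported here. Alternatives were other background corrections, scalings, detection filters and variance models, and leaving out each array.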

Additional observations from a re-analysis of the deposited data

How the results depend on the processing

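The count of members past the threshold with 6 arrays was 0 higher and 2 lower. Lower counts were 4 with an offset of 50 and 4 without background correction, 1 with a mean-variance trend, and 0 under median scaling, under 75th percentile scaling and with the replicate block. With array weights limma called 15 higher and 17 lower, and gave LEF25 replicate 3 a weight of 0.068. Leaving out 1 array at a time gave 0 to 16 higher and 0 to 20 lower, and every value above 0 came from leaving out LEF25 replicate 3. Without LEF25 replicate 3, alternatives chosen after seeing the data gave 0 higher and 13 lower with median scaling and 11 higher and 17 lower with 75th percentile scaling. Over all genes limma called 132 with 6 arrays, 0 with median scaling, 68 with 75th percentile scaling, 4 with the replicate block, 2549 with array weights, 3 to 5 without any array other than LEF25 replicate 3, and 2379 without that array (737 with median scaling). SLC38A1, at −1.11 with 6 arrays, was at −1.95 to 0.52 when 1 array was left out, the 0.52 without LEF25 replicate 3, and at 0.49 there with 75th percentile scaling. Its signal on that array was at background. Leaving out 1 array moved the median of all members between −0.029 and −0.015.

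Median scaling moved the median of all members to −0.54 and those of the classes to −0.40 (nucleoside), −0.42 (amino acid), −0.46 (sugar), −1.06 (nucleotide sugar), −0.63 (mitochondrial), −0.68 (ion) and −0.37 (other), beside −0.53 for all genes. Without LEF25 replicate 3 it gave −0.22 for all members and −0.067 (nucleoside), −0.083 (amino acid), −0.053 (sugar), −0.43 (nucleotide sugar), −0.28 (mitochondrial), −0.31 (ion) and −0.23 (other) for the classes, beside −0.19 for all genes. Under 75th percentile scaling the nucleoside, mitochondrial and other classes were at 0.081, −0.15 and 0.11, beside −0.041 for all genes. Keeping only genes detected on all 6 arrays gave 0.084 for all members, 0.038 for ion and 0.22 for other carriers, beside 0.066 for all genes. That filter leaves out the members lost on LEF25 replicate 3. Same-numbered arrays correlated in their deviations from group means at −0.009, 0.21 and 0.22, and differently numbered arrays at −0.24 to 0.18. These values do not settle whether the numbers mark pairs. The main fit did not take them as pairs. With balanced pairs a replicate block cannot change a fold change, and 0 members were called with it. The second deposited table was not run as an alternative because its row names could not be matched.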

Other observations

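SLC30A1 is a known target of the zinc-sensing factor MTF1, and genes of that response were looked up after the values of SLC30A1 had been seen. MTF1 itself was at −0.35 with 6 arrays and −0.53 ± 0.12 (SE, limma adjusted p = 0.00823) without LEF25 replicate 3. Among the metallothionein genes, which MTF1 induces, MT1F was at 0.63 with 6 arrays and 0.53 ± 0.11 (SE, limma adjusted p = 0.00523) without that array. MT2A was at −0.26 and MT1X at −0.26 on 5 arrays, with limma adjusted p of 0.0825 and 0.117. MT1A, MT1E and MT1G were at −0.12, −0.02 and 0.07 on 5 arrays, and none of these 3 passed.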
